A study of Drosophila melanogaster with 4 samples.

Results

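A set of 60 genes counted under a CG number, the symbol of a predicted gene, was followed through single hybrid Drosophila melanogaster embryos, in which they were low at first and high at the end. Of the 6577 genes whose symbol is CG plus digits, among 17807 genes counted, 116 met 3 conditions on their mean level along the authors' pseudotime order of 245 embryos. Levels are in CPM, the unique molecular identifiers (UMIs) counted for a gene scaled to a total of 1000000 per embryo. The order is described in 4 consecutive stretches: the early stretch (the first 61 embryos), the second (the next 61), the third (the next 62) and the late stretch (the last 61). The mean was at most 10 CPM in the early stretch, under 2 times that mean plus 1 in the second, and at least 10 CPM in the late stretch. The 60 members described here had the highest ratio of the late mean to the mean of the third stretch plus 1. These levels chose the members, so they are given below as a description without a test. The summed CPM of the 60 members averaged 139.5 in the early stretch, 121.1 in the second, 764.3 in the third and 2990 in the late stretch.

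Each individual was an embryo, or an unfertilized egg, and its polyadenylated RNA was read from the 3′ end by a miniaturized CEL-Seq2 protocol. In this protocol every well carries a barcode and every molecule a UMI, so a CPM value does not grow with transcript length. It is a share of the molecules counted in an individual. A rise in CPM need not be a rise in molecules per embryo, which were not estimated. Mothers were virgin DGRP_737 females and fathers DGRP_352 males, so all embryos were F1 hybrids of these inbred lines collected over 0 to 3 h. The 4 libraries held 384 individuals, 96 in each, of which 245 embryos and 8 eggs stand in the order, while 105 embryos and 26 eggs lie outside it. Names of embryos begin with E1, E2 or E3 and those of eggs with U1, U2 or U3 (the labels used here do not say what the digit means). The letter U is read here as an unfertilized egg, which the protocol names among the individuals collected. The 8 eggs of the order and 16 of those outside it have an O in their names, while the other 10 have an A or B as embryos do; the labels do not explain these letters.

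An early fly embryo runs on RNA and protein that the mother put into the egg. During the maternal-to-zygotic transition these transcripts are cleared while the embryo's own genome is switched on, in a minor wave during the rapid syncytial divisions and a major wave as the blastoderm forms cells, after which gastrulation begins. Genes that appear only near the end of this period include many that act in patterned tissues, and a CG number marks a predicted gene that had no name when the annotation used for counting was made.

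All 60 symbols were matched to FlyBase gene identifiers in the BDGP6.54 annotation, and all 60 are protein coding. In that annotation 7 now carry a name: CG9650 is Cph, CG4587 stol, CG16791 aus, CG12184 Alms1b, CG9170 Cep164, CG6808 Zaf1 and CG34383 kmr. Cph is a zinc-finger transcription factor related to the vertebrate BCL11 proteins. The gene stol encodes an alpha2delta subunit of voltage-gated calcium channels. Alms1b and Cep164 belong to families that act at centrioles and basal bodies in other animals. Among the members without a name, CG5171 is annotated as a trehalose-phosphate phosphatase, CG16758 as a purine nucleoside phosphorylase, CG6724 as a relative of the ribosome biogenesis factor WDR12, CG3097 as a metallocarboxypeptidase and CG2145 as a relative of EndoU-type ribonucleases.

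Between 163287 and 1802671 UMIs were counted per ordered embryo, and the median was 568460 in the late stretch and 907317 in the early one. In late and early embryos a list of 14 maternal genes summed to means of 788 and 5365 CPM, and a list of 32 later patterning and signalling genes to 7613 and 506 CPM. Whole embryos were measured, so fewer cells of a type and less RNA per cell cannot be told apart. Of 16 genes listed as markers of embryos past germ band extension, all had UMIs in late embryos, and their summed level there was between 1428 and 3693 CPM, against 530.0 to 1371 CPM in early embryos. Single markers of this list differed in direction. The mean of fkh was 935 CPM in late and 43.8 CPM in early embryos and that of grh 564 and 6.70 CPM. Both were already high in the third stretch, and they made up most of the late sum. Level markers were repo (0.47 and 0.46 CPM), Act57B (44.2 CPM in both) and Osi6 (283 and 288 CPM). The mean of crol was lower in late embryos, at 116 and 436 CPM, and crol and Osi6 made up most of the early sum. Other markers rose mostly in the late stretch. From the third to the late stretch, elav went from 29.0 to 101.8 CPM, peb from 14.2 to 152.3 and Act87E from 6.82 to 94.2. The part of cell composition in the members' levels was not tested. Of 10 chorion and follicle cell markers, 6 had no UMI in late embryos and the list summed to at most 6.65 CPM in any of these embryos.

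The members reached their late levels at different ranks. A midpoint rank was taken for each gene as the rank at which a running mean over 21 embryos first reached 50% of its maximum and stayed there. It could be set for 57 members and ran from 159 to 233, with a median of 216. It fell within the last 31 ranks of the third stretch for 18 members, within the first 30 ranks of the late stretch for 9 and within the last 31 ranks for 30. The other 3 members, CG31038, CG16758 and CG3294, reached a maximum before the end of the order and then declined below 50% again.

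**Figure D1:**
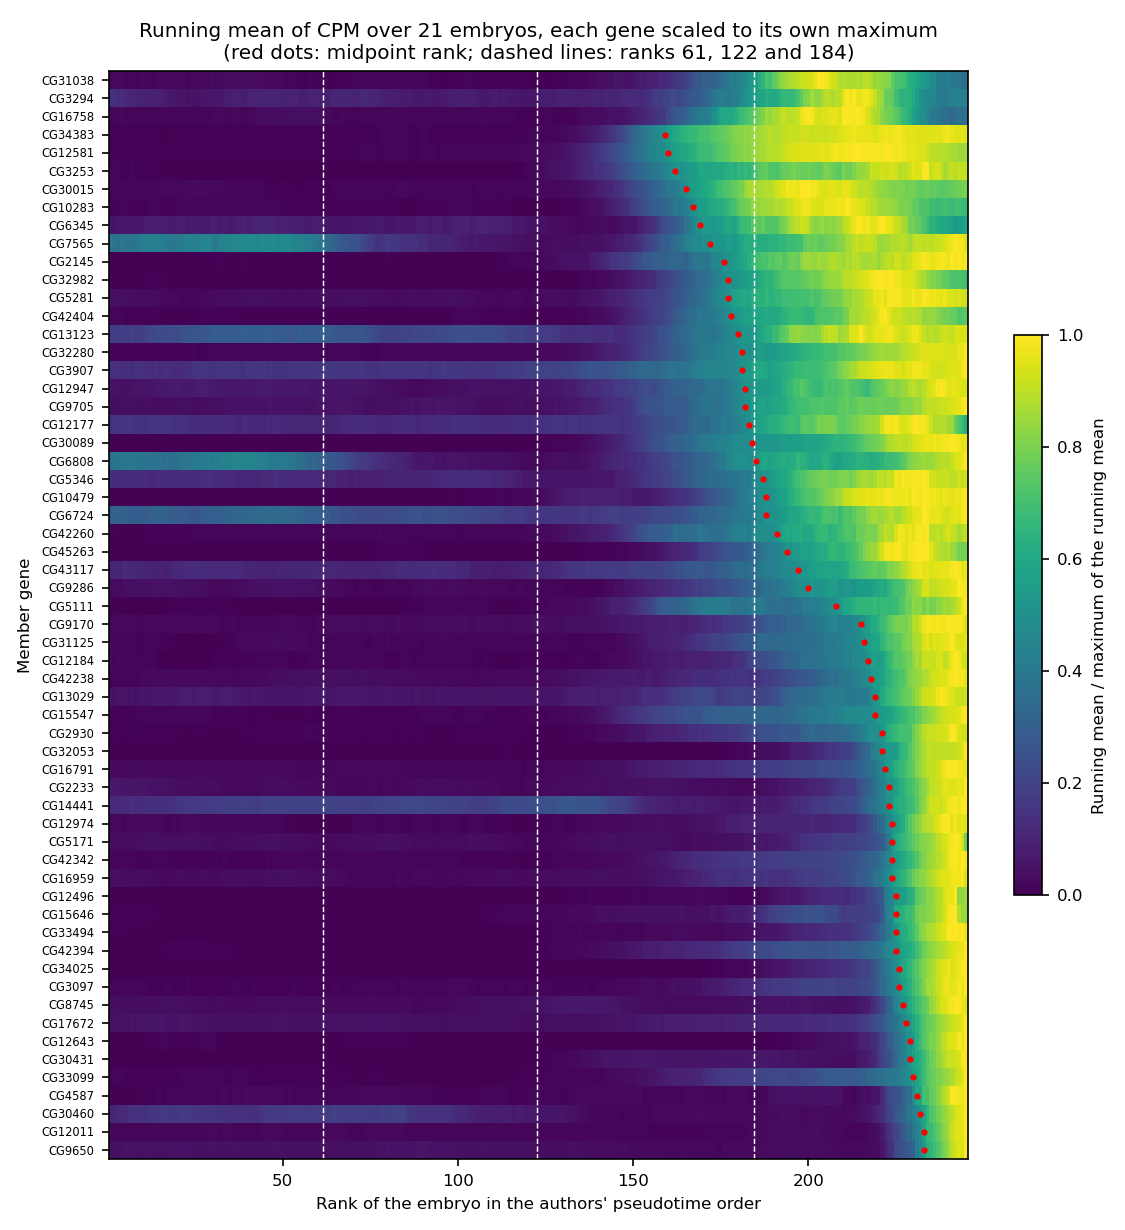
Running mean of CPM over 21 embryos for the 60 members (rows) along the rank of the embryo in the order (columns), each gene scaled to its own maximum, with the midpoint rank as a red dot. The 30 members with midpoints in the last 31 ranks fill the lower rows, and the 3 members without a midpoint stand at the top.

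CG34025 had the highest ratio of the set, 49.4. This gene lies on chromosome arm 3L from 2959722 to 2961049 on the minus strand, has 3 exons and overlaps no other annotated gene. Its level averaged 2.95 CPM in the early stretch, 2.66 in the second, 3.87 in the third and 240.8 in the late one (SD 1.89, 2.07, 4.41 and 254.1; n = 61, 61, 62 and 61). In the last 31 embryos the lowest had 52.5 CPM, the median 432.1 and the highest 901.1, against a mean of 57.2 ± 36.6 CPM in the 30 embryos before them (SD, n = 30). Of the 61 late embryos 59 lay above the highest early embryo.

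Of the members with the next highest ratios, CG32053, CG12011 and CG12643 still averaged only 4.46, 3.26 and 1.02 CPM in the 30 embryos before the last 31. CG32053, ratio 15.2, averaged 0.09, 0.16, 0.18 and 18.0 CPM over the 4 consecutive stretches of the order. CG12011, ratio 11.3, averaged 2.33, 2.22, 1.75 and 31.2 CPM, and CG12643, ratio 8.97, averaged 0.20, 0.19, 0.15 and 10.3 CPM. For CG12011 the last stretch was uneven: the mean was 58.2 CPM in the last 31 embryos, against 3.26 CPM in the 30 before them, and 13 of the last 61 embryos had no UMI. In the 7 final embryos CG12011 had 43.4, 124.6, 116.4, 161.2, 235.9, 211.8 and 42.9 CPM. CG33494 (ratio 8.62), CG12496 (7.73), CG45263 (6.85) and CG2233 (6.52) reached means of 15.7, 10.6, 45.4 and 14.7 CPM in late embryos. CG45263 was the earliest of these, with 10.7 CPM in the last 31 embryos of the third stretch and a midpoint at rank 194.

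The transcription factor gene CG9650 (Cph) and the calcium channel subunit gene CG4587 (stol) had their highest levels at the very end. CG9650 spans 104210 bases of the X chromosome and had a midpoint at rank 233, shared with CG12011 as the latest of the set. Its mean was 50.5 CPM in the last 31 embryos, against 3.52 CPM in the 30 before them, and it had 19.9, 59.0, 256.5, 131.4, 157.3, 211.8 and 73.5 CPM in the 7 final embryos. CG4587 averaged 21.1 CPM in the last 31 embryos, against 1.59 CPM in the 30 before them, with its midpoint at rank 231, and 28 of the last 61 embryos had no UMI of it. The libraries differed most for CG9650, whose late mean ranged from 12.9 to 38.0 CPM among the 4 libraries. The gene with the other very late midpoint, CG30460 at rank 232, averaged 24.2 CPM in the last 31 embryos, against 1.29 CPM in the 30 before them.

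**Figure D2:**
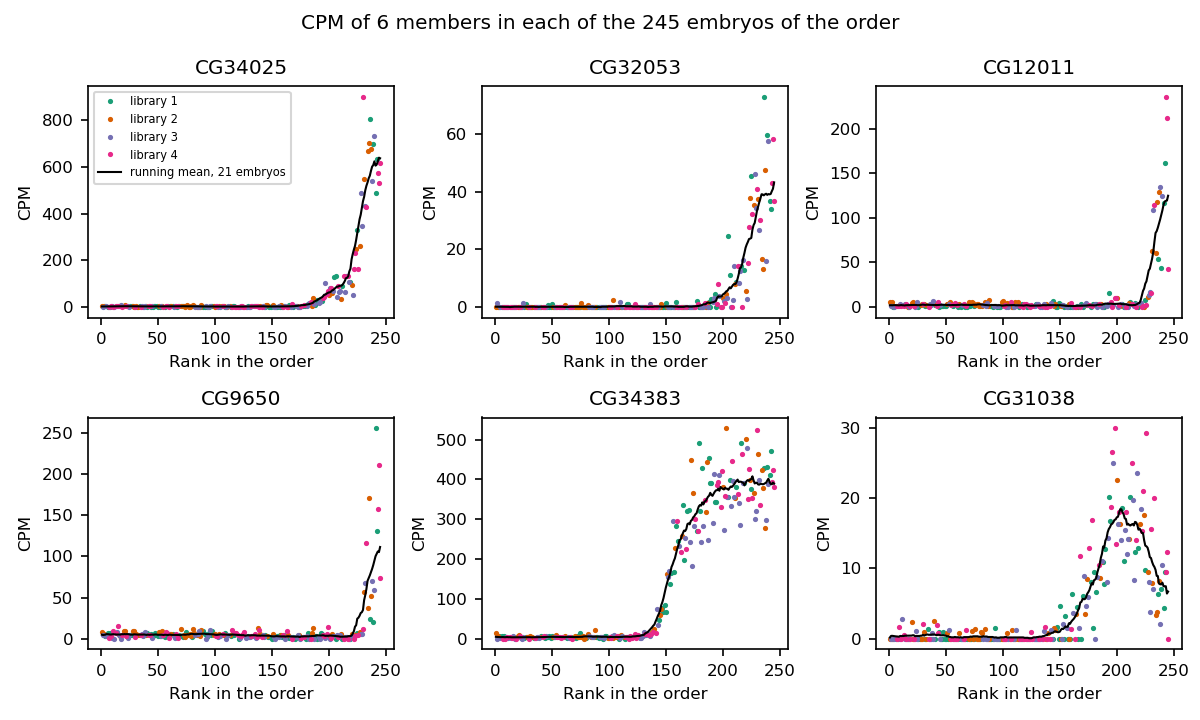
CPM of 6 members in each of the 245 embryos (points, coloured by library) against rank in the order, with the running mean over 21 embryos as a line. CG34025, CG32053, CG12011 and CG9650 have their midpoints at ranks 226, 221, 233 and 233, CG34383 has its midpoint at rank 159, and the running mean of CG31038 is highest at rank 203.

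A second pattern was an earlier approach to a plateau. CG34383 (kmr) and CG12581 were the most abundant members, with means of 385.6 ± 61.3 and 406.4 ± 55.7 CPM in late embryos (SD, n = 61), and together made up 26.5% of the summed late level of the set. Both had the earliest midpoints, at ranks 159 and 160. The lowest late embryo had 248.0 CPM of CG34383 and 220.5 CPM of CG12581, above every early embryo, of which the highest had 14.2 and 10.8 CPM. CG3253, an annotated glycosyltransferase, followed with a midpoint at rank 162 at a much lower level, 21.8 CPM in late embryos. CG32982 (164.3 CPM), CG10479 (155.0), CG30089 (107.2) and CG32280 (92.2) were the other abundant genes of this kind, with midpoints between ranks 177 and 188. CG42342 (99.1 CPM), CG16791 (70.7), CG17672 (54.3) and CG42238 (53.5), by contrast, had theirs at ranks 224, 222, 228 and 218.

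Another pattern was a maximum before the end of the order. CG31038 averaged 11.2 CPM in the last 31 embryos, against 16.4 CPM in the 30 before them, with its maximum at rank 203. CG16758, the purine nucleoside phosphorylase, had 14.8 CPM in the last 31 embryos, against 22.1 CPM in the 30 before them. CG3294 had 12.6 CPM against 15.9 CPM in the same stretches. In all, 7 members were lower in the last 31 embryos than in the 30 before them, 53 were higher, and 29 were higher by more than 2 times.

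The starting level separated the members again. In early embryos the mean was under 1 CPM for 30 members, between 1 and 3 CPM for 14 and between 3 and 10 CPM for 16. The mean of the third stretch was below the early mean in 10 members. CG6808 (Zaf1), a zinc-finger gene, averaged 8.33, 1.87, 3.93 and 14.5 CPM over the 4 stretches. CG7565 averaged 9.44, 2.98, 5.26 and 18.1 CPM. CG30460 averaged 7.41, 6.33, 1.37 and 12.9 CPM. In these 3 genes the level fell below its early mean before it rose to the late one. In the 8 eggs of the order the 60 members summed to between 109.0 and 147.5 CPM, 31 members averaged under 1 CPM, and 5 members (CG32053, CG12496, CG42404, CG2145 and CG3253) had no UMI.

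The libraries were compared on the values that chose the members, so what follows is a description. The ratio of the late mean to that of the third stretch plus 1 was above 1 in all 4 libraries for 60 of 60 members and above 2 in all 4 for 53, and the ratio between the highest and lowest library mean in late embryos had a median of 1.29 over members. The largest count of any member in an individual of the order was 668 UMIs. The number of UMIs that the protocol can distinguish was not set beside it, and counts outside the order were not checked in this way.

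The last genes inside the limit were CG12581 (ratio 2.35), CG3907 (2.34) and CG3253 (2.26), and the first outside it were CG7884 (2.18), CG9839 (2.17) and CG1806 (2.16). The limit of 60 therefore fell where ratios differ little. Repeating the selection kept 55 members with TMM-scaled CPM and 40 with the authors' deposited normalized values, and between 57 and 58 when 1 library was left out.

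The same thresholds applied to genes with other symbols gave 400 genes, and the 60 with the highest ratio were set beside the members. The 57 members with a midpoint had it at ranks 159 to 233 with a median of 216, and 58 of the other 60 genes at ranks 191 to 233 with a median of 222.5. The median late level was 24.2 CPM over members and 51.7 CPM over the other 60, and 6 members against 21 of the others averaged over 100 CPM. The members' ratios ranged from 2.26 to 49.4 and those of the others from 8.75 to 87.0, so the CG genes were chosen from a shorter list with lower ratios. The lists of known genes used here hold no CG symbol, so no member could belong to them. The thresholds on levels were met by 22 of 32 later patterning and signalling genes and by 2 of 29 first-wave zygotic genes. Over all 17807 genes counted, they were met by 116 of 6577 CG symbols and by 400 other symbols. The midpoint had a median of rank 199 over the 31 later patterning genes that had one.

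The median gene length was 3728.5 bases over the 60 members, 14711 bases over the 59 matched genes with other symbols and 2853 bases over 7221 genes with a mean of at least 1 CPM. Of the members 12 (20%) lie on the X chromosome, against 5.08% of the comparison genes and 17.6% of those 7221 genes. In all 6 members have a single exon. These shares are descriptions without a test.

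Overlap of the members with other genes was looked up in the annotation. How the counting handled strand or reads with several matches was not examined. By annotated coordinates 37 members overlap no other gene, 20 overlap a gene on the opposite strand and 5 overlap one on the same strand. Of those 5, CG15547 overlaps Sap-r, which averaged 1352 CPM in late embryos against 25.8 CPM for CG15547, so reads of the pair may be split by the counting. CG6808 overlaps CG6813, whose mean was 3.63 CPM in late and 8.06 CPM in early embryos. CG12011 overlaps CG7991, which stayed under 0.4 CPM, and the genes nested in CG45263 and CG4587 were at or near 0.

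CG33099 and CG5346 were the pair of members that are direct neighbours, 257 bases apart on the minus strand of chromosome arm 3R. They differed in timing: CG33099 had its midpoint at rank 230 and CG5346 at rank 187. Their late means were 17.8 and 28.0 CPM.

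Embryos and eggs outside the order were used neither to place embryos nor to choose the members, and they were compared to ask whether the members are transcripts of the embryo. They comprise 44 embryos with E1 names, 18 with E2 names, 43 with E3 names and 26 eggs. Their depth ran from 707 to 1355196 UMIs in embryos and from 156 to 735912 UMIs in eggs, so levels are given below for the 74 embryos and 19 eggs with at least 100000 UMIs. The summed level of the members in these 74 embryos was 93.7 CPM at the lowest, 5372 at the median and 6889 at the highest, against 48.1, 111.7 and 340.4 CPM in the 19 eggs. Of the 74 embryos 65 reached the lowest value of late embryos, 1483 CPM, and 6 were at or below the highest value of early embryos, 198.6 CPM.

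**Figure D3:**
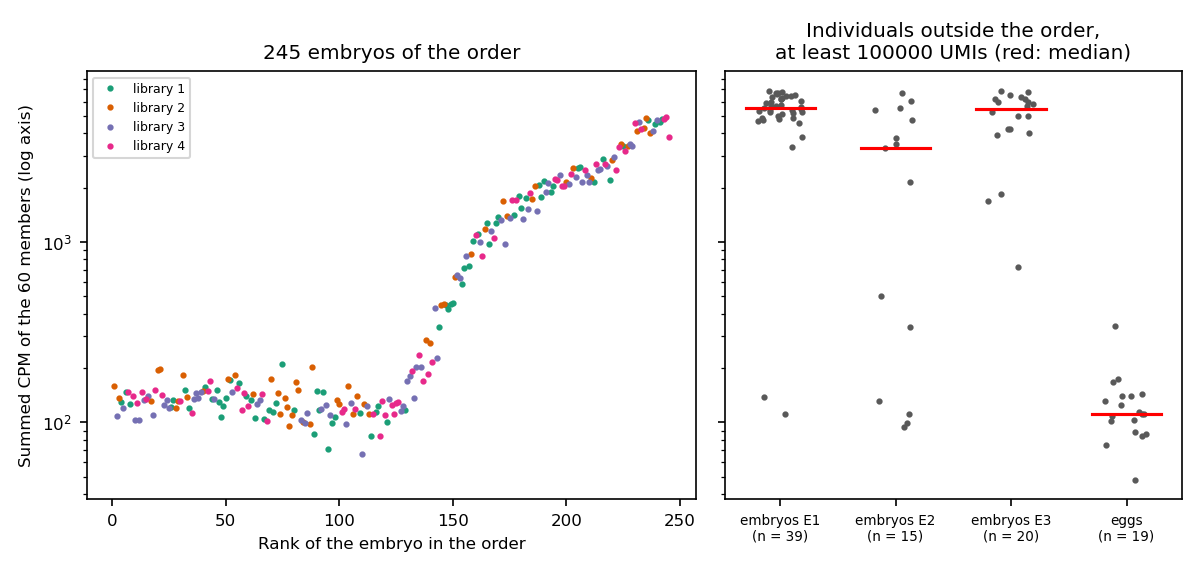
Summed CPM of the 60 members on a log axis, in the 245 embryos of the order by rank (left) and in individuals outside the order with at least 100000 UMIs (right; red lines are medians). The 39 E1, 15 E2 and 20 E3 embryos have medians of 5561, 3320 and 5455 CPM, and the 19 eggs of 111.7 CPM.

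In edgeR's quasi-likelihood test over all genes with a count, with library as a covariate, 59 of 60 members were higher in the 105 embryos than in the 26 eggs at a Benjamini-Hochberg adjusted p under 0.05. In the same test 44.5% of all 13265 genes were higher. The scaling moved the background: with RLE size factors 2734 genes were higher and 1193 lower, against 2511 and 1766 with TMM after a filter on low counts, and the median log2 fold change of all genes was 0.50 with RLE, -0.05 with total UMIs only and 0.22 with TMM, while all 41 members tested were higher under each of these scalings. The labels do not say how the 10 eggs with A or B names were told from embryos. If their RNA was used for this, the test with all 26 eggs would partly repeat that choice. With the 16 O-named eggs only, a choice made after the data were seen, 46 of 46 members tested were higher, beside 40.4% of 5967 genes. In the test over all genes with a count and with all 26 eggs, the median log2 fold change was 4.76 over members and 0.52 over all genes. After a filter on low counts, 41 members remained among 5619 genes, of which 44.7% were higher; the other 19 members were too sparse to be tested that way. The individuals are separate embryos and eggs, and the libraries are technical batches.

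CG12011 had the largest difference among the genes that passed that filter. Its level was 0, 480.8 and 1519 CPM at the lowest, median and highest of the 74 embryos, against 0, 0 and 11.3 CPM in the 19 eggs, and 59 embryos lay above every egg (log2 fold change 7.34, SE 0.89, adjusted p = 8.0e-13). CG42394 had 0, 110.4 and 177.5 CPM in embryos, against 0, 0 and 3.55 CPM in eggs (log2 fold change 7.28, SE 0.60, adjusted p = 1.0e-20). CG5171, the trehalose-phosphate phosphatase, had 0, 156.1 and 533.9 CPM in embryos, against 0, 0 and 5.22 CPM in eggs (log2 fold change 6.89, SE 0.74, adjusted p = 4.3e-15). In these 3 genes the medians stood far above the eggs while a few embryos had none.

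The smallest differences among the filtered genes were those of CG3907 (log2 fold change 2.22, SE 0.26), CG43117 (2.44, SE 0.32) and CG14441 (2.61, SE 0.36). All 3 were present in eggs, with medians of 11.5, 5.17 and 13.9 CPM, against 44.8, 26.1 and 71.5 CPM in embryos. CG13029 was the member that did not pass: its log2 fold change over all genes with a count was 0.95 (SE 0.45, adjusted p = 0.055), with medians of 3.26 CPM in embryos and 4.08 CPM in eggs. CG12177 and CG3294 passed with log2 fold changes of 1.00 and 1.01, although 15 and 12 of the 74 embryos lay above the highest egg. The median of CG12177 went against its call, at 4.84 CPM in the 74 embryos and 6.71 CPM in the 19 eggs, while that of CG3294 was 3.71 CPM in embryos and 0 in eggs.

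The embryos outside the order did not repeat the levels at its end. The 39 deep embryos with E1 names had a median summed level of 5561 CPM, and 46 of all 74 deep embryos exceeded the highest embryo of the order, 4934 CPM. Set against the last 31 embryos of the order, the E1 median was above in 22 members, by more than 2 times in 11 of them, and below in 38 members, by more than 2 times in 13. These differences were not tested, because levels at the end of the order were used in the choice of members.

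CG12011 and CG9650 were the members furthest above. CG12011 had a median of 661.0 CPM in the 39 E1 embryos outside the order, against 17.1 CPM in the last 31 embryos, a ratio of 38.6. CG9650 had 417.9 CPM against 11.7 CPM, a ratio of 35.9. CG5171 (180.3 against 20.9 CPM), CG30460 (118.4 against 17.1), CG33099 (107.1 against 23.1), CG16791 (368.8 against 98.0) and CG4587 (20.6 against 3.75) were also well above. Most of these genes had their midpoint in the last ranks of the order. CG31038, which declined within the order, had 52.6 CPM in the E1 embryos against 9.54 CPM in the last 31.

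CG34025 was the member furthest below. Its median was 6.69 CPM in the 39 E1 embryos outside the order, with a range of 0 to 687.4, against 432.1 CPM in the last 31 embryos. The gene with the highest ratio within the order was therefore closer to its early mean of 2.95 CPM than to its late mean in most embryos outside it. CG12177 (4.13 against 35.9 CPM), CG5111 (1.85 against 15.0), CG2145 (9.03 against 36.3) and CG32053 (9.29 against 33.9) were also below. CG34383, one of the plateau genes, stayed level at 381.0 against 393.2 CPM, and CG12581 had 213.8 against 407.7 CPM. The neighbours CG33099 and CG5346 differed here too, since CG5346 had 11.3 CPM against 32.3 CPM.

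Most embryos outside the order that were high in CG12011 were low in CG34025. Of the 74 deep embryos outside the order, 12 had at least 100 CPM of CG34025 and 50 had at least 100 CPM of CG12011, with 10 in both groups. Of the last 31 embryos of the order, 29 had at least 100 CPM of CG34025 and 10 had at least 100 CPM of CG12011, all 10 among the 29. Every one of the 50 embryos outside the order with CG12011 at that level also had at least 100 CPM of CG9650. The limit of 100 CPM was chosen after the values were seen.

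**Figure D4:**
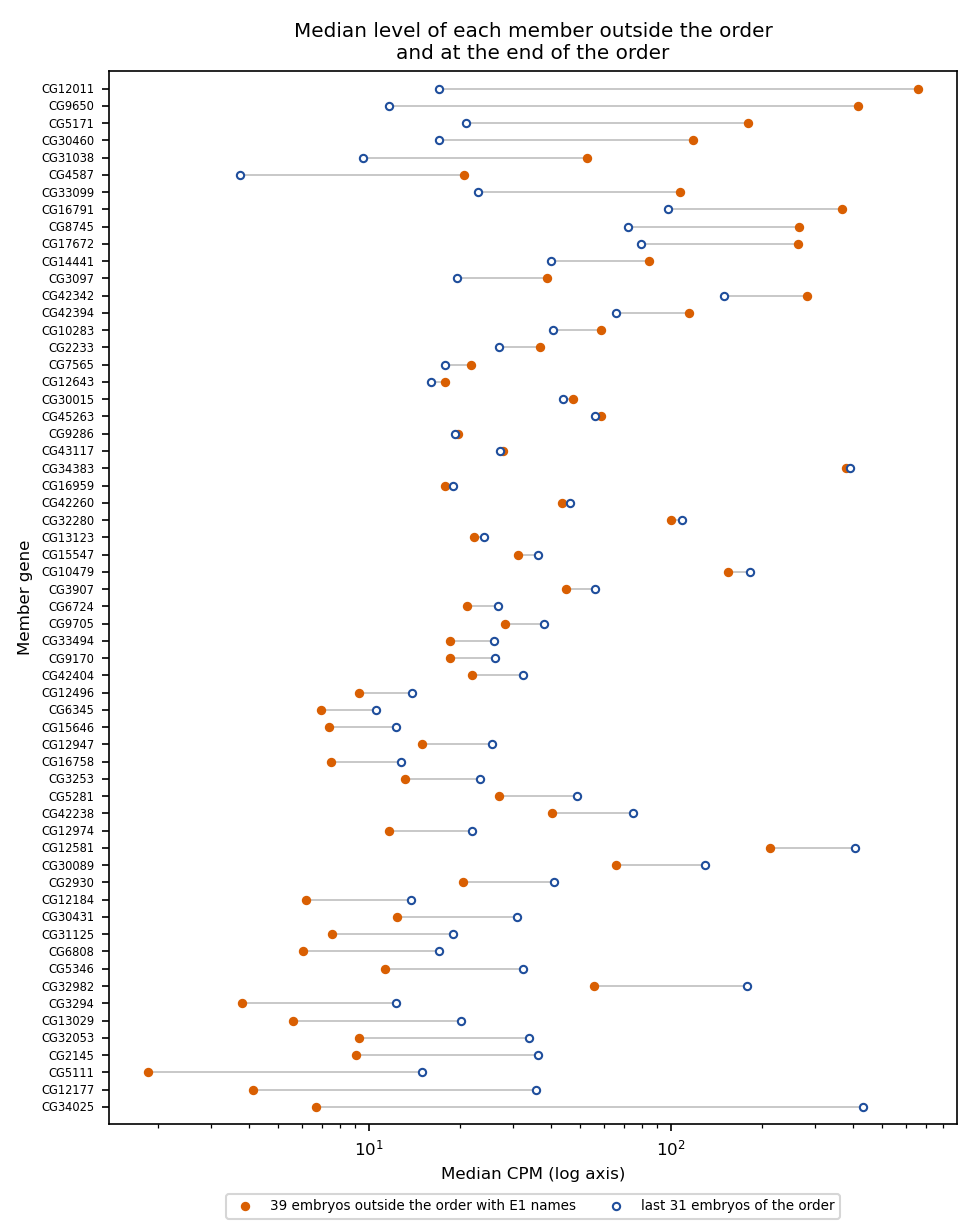
Median CPM of each member on a log axis in the 39 embryos outside the order with E1 names and at least 100000 UMIs (filled) and in the last 31 embryos of the order (open), sorted by their ratio. CG12011 and CG9650 lie at the top with ratios of 38.6 and 35.9, and CG34025 at the bottom with 0.015.

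Markers of older embryos had a higher median summed level outside the order than in late embryos. Their summed level had a median of 6441 CPM over all 105 embryos outside the order, with a range of 0 to 59123. In late embryos the median was 2233 CPM and the range 1428 to 3693. The 105 embryos include shallow ones, with as few as 707 UMIs, so that range is not limited to the deep embryos. Whether marker and member levels go together across embryos was not tested. The glial marker repo had a median of 58.8 CPM in the deep embryos outside the order and 0 in late embryos, while the haemocyte marker Hml had a median of 0 in both. For grh the median was lower outside the order, at 457 CPM against 535 CPM in late embryos. The part of age or cell composition in the members' levels was not tested.

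Embryos outside the order with E3 names were set against those with E1 names, 43 against 44 individuals, in the same edgeR test with a filter on low counts. Depth moved with the names, with a median of 89126 UMIs in E3 embryos and 535258 in E1 embryos. Of the 30 members that passed the filter, 1 was higher and 6 were lower in E3 embryos, beside 9.05% and 20.6% of the 4267 genes tested. With RLE size factors 139 genes were higher and 1584 lower in place of 386 and 877, the median log2 fold change of all genes was -0.43 in place of -0.20, and 0 members were higher and 7 lower. With at least 100000 UMIs, which leaves 20 against 39 individuals, 0 of 44 members were called in edgeR's test (9 at an unadjusted p under 0.05) while 2.92% and 3.04% of 5618 genes were higher and lower, and without the fourth library 0 of 37 members were called (5 at an unadjusted p under 0.05).

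The lower members were CG12011 (log2 fold change -1.62, SE 0.52, adjusted p = 0.013), CG9650 (-1.42, SE 0.37), CG33099 (-1.19, SE 0.31), CG16791 (-1.02), CG42342 (-0.79) and CG10479 (-0.68). The higher one was CG7565 (0.49, SE 0.17, adjusted p = 0.023). In individuals of at least 100000 UMIs, CG12011 had 0, 292.8 and 1519 CPM at the lowest, median and highest of the 20 E3 embryos, against 2.38, 661.0 and 1348 CPM in the 39 E1 embryos. CG9650 had 0, 283.3 and 761.6 CPM in E3 embryos, against 1.19, 417.9 and 1002 CPM in E1 embryos. The groups overlapped over nearly their whole range in both genes, and with these individuals their log2 fold changes were -0.86 and -0.81 (adjusted p = 0.34 and 0.18). The other 4 lower members had values between -0.22 (CG42342) and -0.87 (CG33099) in the same individuals. Over all alternatives the adjusted p ranged from 0.00091 to 0.46 for CG12011 and from 0.00022 to 0.24 for CG9650.

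The split between parental alleles was not used to choose the members. The authors' deposited allele values, which they derived from variants between the parental lines and normalized, cover 17 members, and 16 had enough signal in late embryos. A two-sided sign-flip permutation test on the paternal minus the maternal value of each of the 61 embryos called 13 of these 16 after adjustment over 2062 genes. The paternal value was higher in 4 and the maternal value in 9, beside 8.97% and 70.1% of all genes tested. All mothers came from the same line and all fathers from the other. An effect of the parent therefore cannot be told apart from a difference between the lines in any of these values. The paternal share had a median of 43.4% over the 16 members and of 33.1% over all genes tested. In the 40 late embryos with at least 500000 UMIs these medians were 41.8% over 17 members and 39.0% over all genes tested. In eggs, which have no father, low paternal values were also listed, so shares of weakly expressed genes carry a background. In the eggs of the order CG34025 averaged 0.625 paternal and 1.625 maternal. For CG34383 the values were 0.625 paternal and 0 maternal, and for CG31038 0.375 and 0. Other members had more maternal signal in eggs, such as CG6724 (0.125 paternal and 3 maternal) and CG14441 (0 and 1.5).

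The paternal share was highest in CG6724, CG42342 and CG31038. CG6724, the WDR12 relative, averaged 4.21 ± 3.44 paternal and 1.97 ± 1.96 maternal (SD, n = 61 embryos), a paternal share of 68.2%, and the paternal value was higher in 43 embryos and the maternal value in 13 (adjusted p = 1.8e-05). In early embryos the same gene averaged 0.180 paternal and 2.36 maternal, so the higher value was the paternal one late and the maternal one early. CG42342 had a paternal share of 65.8% and CG31038 of 63.0%, the latter with paternal but no maternal signal in the eggs of the order. CG30015 also passed, at 55.8% (adjusted p = 0.0055).

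The paternal share was lowest in CG14441, CG33494 and CG42238. CG14441, which is X-linked and so has no paternal copy in sons, averaged 0.770 ± 2.10 paternal and 5.11 ± 5.91 maternal, a paternal share of 13.1%. CG33494, on an autosome, averaged 1.41 ± 2.55 paternal and 7.02 ± 8.57 maternal, a share of 16.7%, with the maternal value higher in 53 embryos and the paternal value in 2. Its early maternal value was near 0, at 0.148 in the early stretch. CG42238 had a share of 27.7%. The smallest p that the permutations can give is 1e-05, which these 3 genes reached (adjusted p = 1.8e-05 each).

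CG34383 and CG34025 had the highest late levels among the members tested. CG34025 averaged 58.5 ± 58.0 paternal and 100.2 ± 111.7 maternal, a share of 36.8%, with 0.656 paternal and 2.05 maternal in early embryos. CG34383 averaged 27.1 ± 20.5 paternal and 37.8 ± 29.9 maternal, a share of 41.8%. CG16791 (30.8%), the X-linked CG2145 (35.5%), CG45263 (36.7%) and CG9286 (45.0%) also had higher maternal values. CG5281 (49.7%, adjusted p = 0.89), CG15547 (53.9%, adjusted p = 0.069) and the X-linked CG12643 (54.2%, adjusted p = 0.59) did not pass the threshold, and CG12643 varied between libraries from 29.1% to 76.8%.

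**Figure D5:**
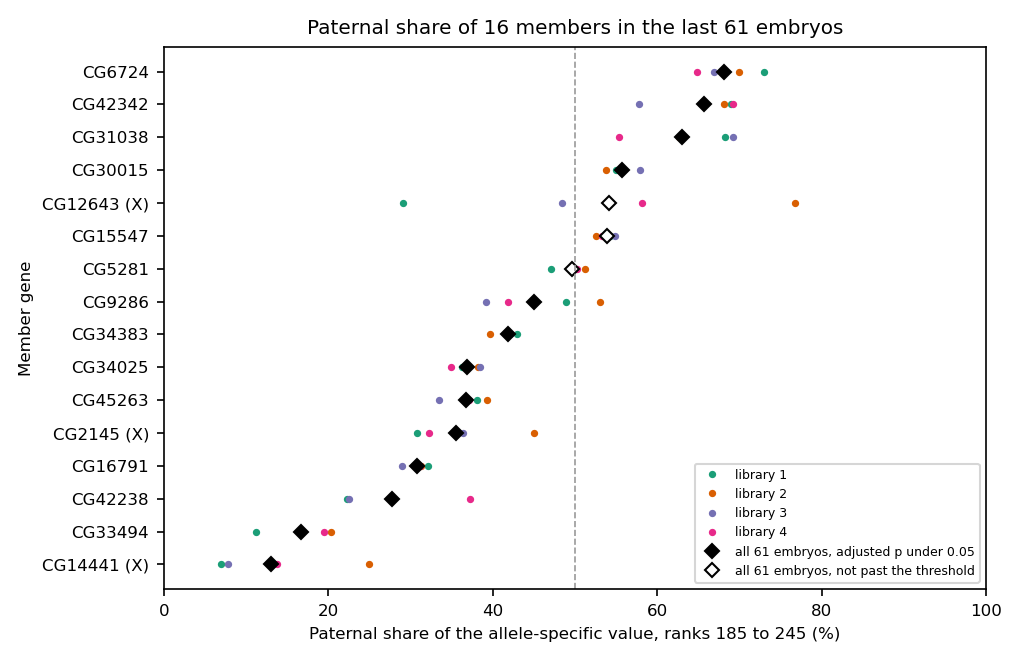
Paternal share of the allele-specific value in late embryos for the 16 members tested, over all 61 embryos (diamonds, filled at an adjusted p under 0.05) and in each of the 4 libraries (dots); X marks X-linked genes. Shares run from 13.1% for CG14441 to 68.2% for CG6724, with the dashed line at 50%.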

How the data were processed

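Polyadenylated RNA of single embryos and eggs was counted in 4 multiplexed libraries. The authors deposited raw tables of UMI counts, genes by barcodes, with 17807 genes and 92 spike-ins. The 2 series tables are normalized values of an unstated scale, treated here as a score, and the deposited allele table is of the same kind. Per the submitters' processing notes, Trim Galore 0.6.10, SAMtools 1.17, Picard, GATK 4.4.0.0 and R 4.2.1 were used with the builds dm6 and BDGP6. The counting tool's version and the normalization are not given in the sources used here. A table of the authors assigns barcodes to individuals, and these score and count columns were mapped to individuals through it.

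CPM were computed from counts without spike-ins. Stretches of the order were ranks 1 to 61 (early), 62 to 122, 123 to 184 and 185 to 245 (late), with 31 embryos from rank 215 on. Coordinates and gene structures come from the BDGP6.54 annotation. Counts of individuals outside the order were tested with edgeR 4.0.16 (TMM, filterByExpr, library as covariate, quasi-likelihood), with DESeq2 1.42.0 as an alternative, in R 4.3.3. Parental values were tested by sign flips with 100000 resamples in genes detected in 10 or more of the 61 late embryos with a mean of both parents' values together of 1 or more, with numpy 2.4.6. Adjustment was by Benjamini-Hochberg over all genes tested, with a threshold of 0.05. On simulated data with 200 changed genes, edgeR recovered 99 of 99 tested genes changed by 2 times and 96 of 96 changed by 4 times for E3 against E1 embryos, with 12 false calls among 4247 genes, and 94 of 94 and 84 of 84 for embryos against eggs, with 11 false calls among 5410 genes. The sign-flip test recovered 200 of 200 with 6 false calls among 2062 genes. The simulated counts had the same fixed spread around the mean for every gene and no differences between libraries or ages. The simulated parental shares did not vary between embryos beyond sampling. Recovery and false calls in the real groups were therefore not measured.

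Individuals are the replicates and libraries technical batches. Groups follow the names of individuals, with U read as egg. Genes named are those with the highest ratios, levels, fold changes or paternal shares at either end, those at the limit of the selection, the earliest and latest midpoints, adjacent members, and others by their value in a count. The members, lists and tests were chosen with earlier results of these data known. Alternatives were another tool, other size factors, no filter, no library term, deeper individuals, each library left out, and, for the selection, other values and limits. Promoter motifs and protein features were not analysed here.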

Additional observations from a re-analysis of the deposited data

Results flagged for a closer look

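Dixon's criterion was applied to 15 sets of 4 to 8 values, and chance passes about 1 in 20. It was passed by 2. Among the 5 eggs outside the order with U1 names, the summed level of the members was 1461 CPM in 1 egg, against 85.9 to 139.1 CPM in the others. That egg had 4106 UMIs in all and 6 members with a UMI, whereas the other 4 had at least 100000 UMIs. Among the 7 embryos with E1 names in the late stretch, the lowest summed level was 4009 CPM, against 4615 to 4934 CPM in the other 6.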

How the results depend on the processing

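The groups outside the order share the 4 libraries, and library was a term of the fits. For E3 against E1 embryos outside the order, 7 members were called, 1 higher and 6 lower. Without the library term 4 were called (3 lower), and with individuals of at least 100000 UMIs 0 in either direction. The higher member became 2 with DESeq2, and 0 with RLE size factors, with total UMIs only and with no filter on low counts. Leaving out each library gave 0 to 8 members in all, 0 to 1 higher and 0 to 8 lower, and over all genes 138 to 438 higher and 427 to 1030 lower. Over all genes RLE size factors gave 139 higher and 1584 lower, and individuals of at least 100000 UMIs gave 164 and 171. For embryos against eggs, the count of all genes higher was 5897 with no filter on low counts, where more genes were tested, against 2511. The members called there, 38 to 44 with each library left out, were all of those tested. The cause of these changes was not tested. The allele calls numbered 12 to 13 members with each library left out, and 14 with no minimum mean; CG15547 passed without the fourth library (54.1%, adjusted p = 0.0082). In the selection, 49 members were kept with all limits 10 ranks earlier. Limits of 40 and 80 genes cut the same ranking of ratios, so they kept 40 and 60 members by construction. The median log2 fold change over members for E3 against E1 embryos was -0.27, against 0.08 with individuals of at least 100000 UMIs and 0.13 without the fourth library, and that over all genes for embryos against eggs was 0.22, against -0.05 with total UMIs only. Direction under these alternatives was compared for the members called in E3 against E1 embryos. It was also compared for the 3 highest and 3 lowest filtered fold changes for embryos against eggs, with O-named eggs only included. The 3 highest and 3 lowest paternal shares were compared too. None of these changed direction. Other named members were not compared in this way, and CG9286, called maternal higher at 45.0%, had a paternal share of 53.0% in the second library. The shallow individuals limit the comparisons outside the order, and at the depth of late embryos a member at 10 CPM rests on a few UMIs per embryo.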
